A study of Mus musculus with 17 samples.

Results

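The 9 genes described here encode transcription factors of the macrophage lineage: Spi1 (which encodes PU.1), Runx1, Maf, Ets2, Mef2a, Mef2c, Klf2, Klf4 and Klf6. They were chosen by symbol among the 24453 gene models of an expression table in RPKM, read counts scaled to exon length and library size, and each symbol had 1 model. All 9 passed the filter on low values (mean of 1 RPKM or more) in every comparison.

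PolyA RNA-seq was available for 13 libraries of mouse macrophages. Immortalised bone marrow-derived macrophages (iBMDMs) are a C57Bl/6EiJ line transformed by a retrovirus that carries mutant BRAF and Myc. Cas9 and a lentivirus with a pair of guides were used to edit 1 AP-1 gene per line, giving the groups Atf3KO, JunKO (Jun) and JunDKO (Jund), and infected cells were sorted on the fluorescent protein of that virus. The control group, Scramble, has a scramble control genotype in the labels and zsGreen in the titles, and each of these 4 groups held 2 libraries. The labels give vehicle (PBS) as the treatment of all 8, although only the titles of the 6 edited libraries carry it. Thioglycollate-elicited macrophages (TGEMs) are primary cells of the peritoneal cavity of male mice. They were exposed to vehicle (PBS) or to Kdo2 lipid A (KLA), which activates the receptor TLR4, for 1 h. There was 1 library for each treatment of C57Bl/6EiJ cells, and for Balb/cJ cells there were 1 with vehicle and 2 with KLA. The comparisons ask how the factors differ with the loss of single members of the AP-1 family, with TLR4 signalling, between strains and between the primary cells and the line. No label says that the libraries of a group came from separate cultures or animals, so p-values measure the spread between these libraries, which may be technical.

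Library depth, read off the spacing of low RPKM values, was 1553296 to 18444447 reads per library, and the members had between 3 and 26194 reads in a library. The 8 macrophage markers summed to 17030 to 33340 RPKM in iBMDMs and 9055 to 12030 RPKM in TGEMs. Most of each sum was Lyz2, at 14815 to 30398 RPKM in iBMDMs and 5321 to 7145 in TGEMs. The others stood lower, down to 7.04 RPKM in iBMDMs (Mertk, Scramble replicate 1) and 2.18 in TGEMs (Fcgr1, first Balb/cJ KLA library). Markers of B cells summed to at most 0.488 RPKM in iBMDMs and to 11.8 to 26.0 RPKM in TGEMs, and those of mesothelial cells and fibroblasts to at most 0.115 and to 26.3 to 49.5 RPKM. The neutrophil list reached 41.1 RPKM in iBMDMs through S100a8 alone, which was at 0 in both libraries labelled JunDKO, while Ly6g, Ngp, Camp, Mpo and Elane were at 0 in all iBMDM libraries. Exonic RPKM of the targeted genes does not test the edits. In the edited line named for it, Atf3 measured 154 and 169 RPKM (Scramble 80.7 and 77.4), Jun 26.2 and 20.5 (Scramble 17.6 and 18.5) and Jund 6.94 and 6.07 (Scramble 9.19 and 8.33). Groups are therefore named by their labels alone.

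PU.1 is an ETS-domain factor that opens enhancers in myeloid cells, where it binds next to AP-1 and C/EBP factors, and RUNX1 acts upstream of it in blood formation. MAF is a leucine zipper factor that shares a recognition half-site with AP-1 and favours the differentiated, non-dividing macrophage. ETS2 is an ETS factor activated by RAS and MAPK signalling, MEF2 factors are MADS-box proteins whose activity is gated by class IIa histone deacetylases, and KLF2, KLF4 and KLF6 are zinc finger factors that bind GC-rich boxes and modulate inflammatory gene expression.

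Among the 3 edited lines, changes that were called were found in Maf, Ets2 and Mef2c. A gene was called when limma-trend on log2(RPKM + 1) gave a Benjamini-Hochberg adjusted p under 0.05 over all tested genes, a change of at least 2-fold and a group mean of at least 16 RPKM. In the libraries labelled Atf3KO 2 of 9 factors were called against Scramble, 1 higher (Maf) and 1 lower (Ets2), where 12.5% of all 10691 tested genes were called, 7.84% higher and 4.69% lower. Without Atf3KO replicate 1 the log2 fold changes of Spi1 and Klf2 were 1.58 and 1.36, beside 0.97 and 0.33 with both replicates. In that setting the calls over all genes rose as well. In those labelled JunDKO 3 of 9 were called, 2 higher (Maf and Mef2c) and 1 lower (Ets2), against 4.97% of all genes, 2.69% higher and 2.27% lower. In JunKO limma-trend and limma-voom each called 0 of 9, with 1 at an unadjusted p under 0.05 (Maf), against 0.196% called and 7.88% at that unadjusted p among all genes. Libraries of the compared groups did not overlap for 8 of 9 factors in Atf3KO, 5 in JunKO and 6 in JunDKO, beside 70.8%, 37.2% and 61.6% of all genes, so a lack of overlap between pairs of libraries is common in these data. The calls over all genes also moved with single libraries. Those of JunDKO went from 531 to 264 and 270 without its replicate 1 or 2 and to 332 without Scramble replicate 2, those of Atf3KO from 1339 to 844 without Scramble replicate 2, and those of JunKO from 21 to between 5 and 11 with any 1 of its 4 libraries left out. The 3 comparisons share the same Scramble libraries, so their values are set side by side, and differences between edited lines were tested directly.

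**Figure D1:**
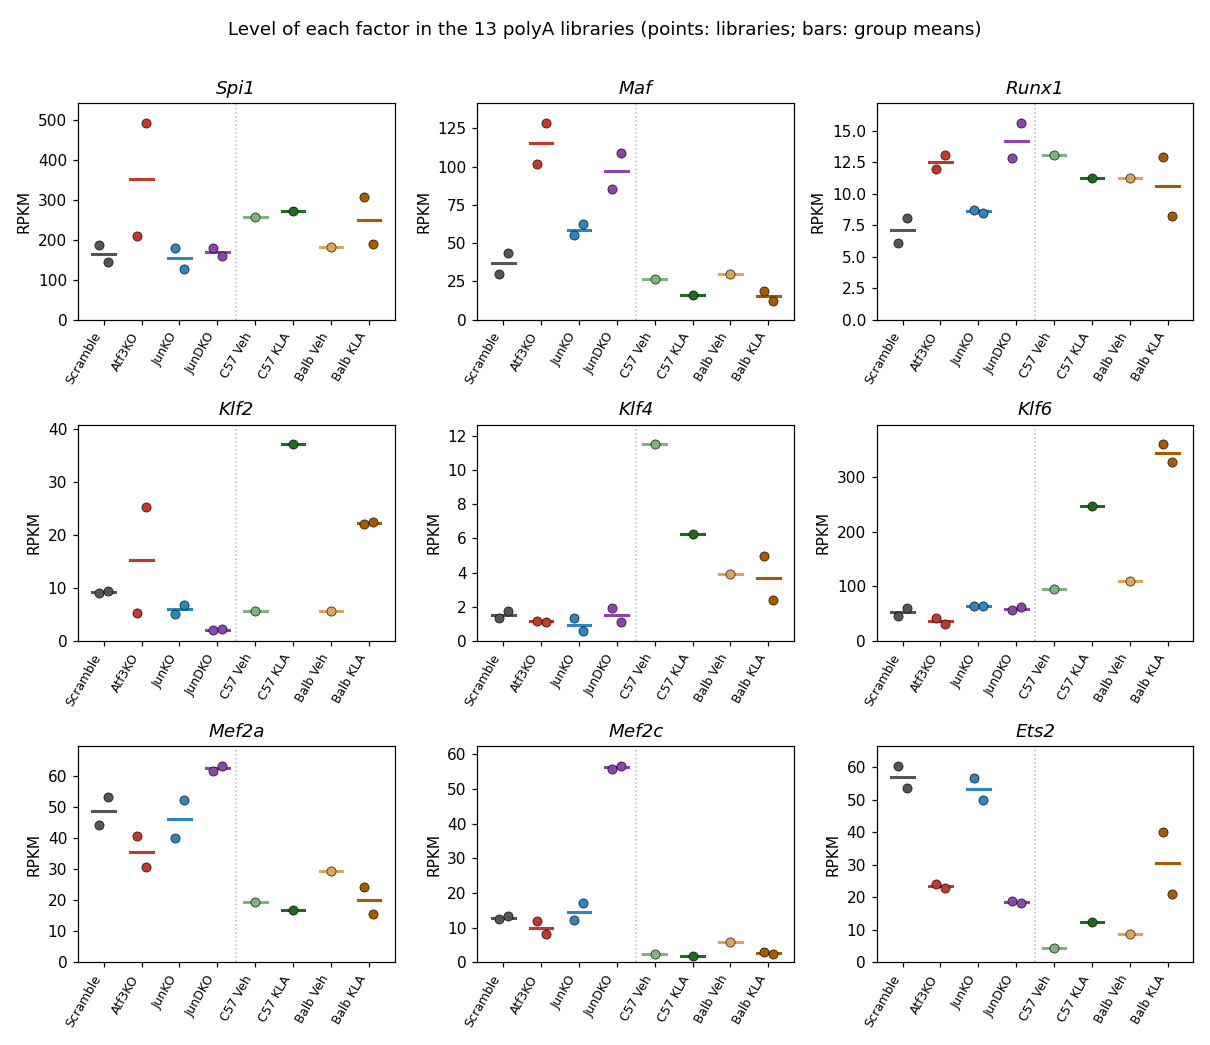
RPKM (linear axes from 0) of each of the 9 factors in 13 libraries, with a point for each library and a bar at the mean of each group; iBMDM groups are left of the dotted line and TGEM groups right of it. Mef2c stood at 55.8 and 56.8 RPKM in JunDKO and at most at 17.1 elsewhere, and Ets2 was lower in Atf3KO and JunDKO than in Scramble and JunKO.

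**Figure D2:**
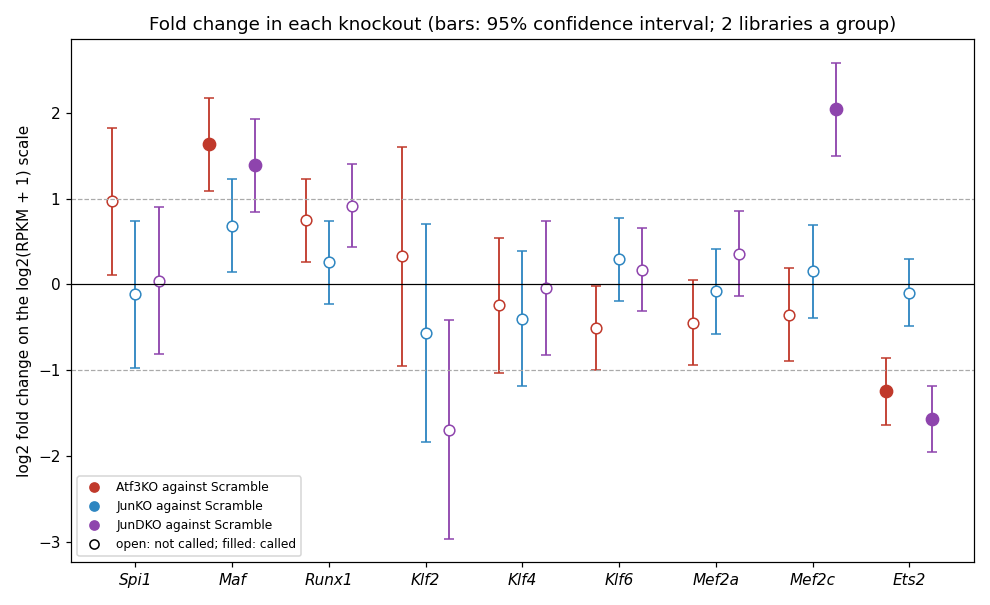
Fold change of each factor against Scramble in Atf3KO, JunKO and JunDKO on the log2(RPKM + 1) scale, with 95% confidence intervals as bars, filled points for called changes and dashed lines at 2-fold. Filled points are Maf and Ets2 in Atf3KO and Maf, Mef2c and Ets2 in JunDKO, with none in JunKO.

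Ets2 (chromosome 16, 95702407 to 95721049 on GRCm38, plus strand) fell in 2 of the 3 edited lines. It measured 60.5 and 53.7 RPKM in Scramble, 56.8 and 50.0 in JunKO, 24 and 22.9 in the libraries labelled Atf3KO and 18.9 and 18.2 in those labelled JunDKO. The groups split into a high pair, Scramble and JunKO, whose libraries overlapped, and a low pair, Atf3KO and JunDKO, whose libraries lay below every library of the high pair. The log2 fold change against Scramble was -1.25 ± 0.17 (SE) in Atf3KO (limma-trend adjusted p = 0.00159) and -1.57 ± 0.17 in JunDKO (adjusted p = 9.25e-04), and both calls held in each alternative run, with adjusted p of 2.71e-04 to 0.0139 over 15 and of 7.60e-05 to 0.0168 over 16. In JunKO it was -0.10, with a 95% confidence interval of -0.48 to 0.29. The direct contrasts called Ets2 lower in Atf3KO than in JunKO (-1.15 ± 0.17, limma-trend adjusted p = 0.00271, 9.71% of all genes called) and lower in JunDKO than in JunKO (-1.47 ± 0.17, adjusted p = 0.00178, 3.5% of all genes called). Atf3KO and JunDKO themselves differed by 0.32 (95% confidence interval -0.07 to 0.71), which was not called. The only Atf3KO library of the same title date as the other iBMDM libraries, replicate 1, gave a change of -1.21 against Scramble.

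The RefSeq window around the start of Ets2 (GRCm38.p6, chr16:95702157-95702456, plus strand, 250 bases before the start and 50 after it) is shown because the gene fell in 2 edited lines and had higher values in KLA libraries. It was searched on both strands, as were the 32851 windows of the same length, for the AP-1 element TGANTCA (in 7.81% of all windows), the cyclic AMP element TGACGTCA (1.79%), the PU.1-type ETS core GAGGAA (28.3%), an NF-kappaB site (4.79%), the CArG box (1.63%) and the MEF2 site (3.19%), and held no match to any of them. It held 1 KLF-type GC box, GGGCGG (35.7% of all windows), at positions -233 to -228 when the start base is 0, which is not marked. Matches to the other motifs are printed in capitals in the windows given here, so this window has none.
Ets2: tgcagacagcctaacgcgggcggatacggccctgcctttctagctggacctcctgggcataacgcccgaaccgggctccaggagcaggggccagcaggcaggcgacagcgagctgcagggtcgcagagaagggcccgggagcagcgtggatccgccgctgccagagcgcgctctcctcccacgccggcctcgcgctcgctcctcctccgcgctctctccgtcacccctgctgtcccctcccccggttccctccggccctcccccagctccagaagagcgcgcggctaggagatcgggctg

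Mef2c (chromosome 13, 83504034 to 83667079, plus strand) rose in the libraries labelled JunDKO and in no other edited line. It measured 12.5 and 13.3 RPKM in Scramble, 12.3 and 17.1 in JunKO, 11.9 and 8.14 in Atf3KO, and 55.8 and 56.8 in JunDKO, where 556 and 6715 reads lay behind the values. The JunDKO libraries stood above all others and were close to each other. The log2 fold change was 2.04 ± 0.24 against Scramble (limma-trend adjusted p = 0.00127, and 8.00e-05 to 0.0259 in 16 alternatives) and 1.89 ± 0.24 against JunKO (adjusted p = 0.00264, range 2.05e-04 to 0.0434). Against JunDKO, Atf3KO was lower by -2.40 ± 0.24 (adjusted p = 3.49e-04, 12.2% of all genes called), the 1 call among the 9 factors in that contrast. In Atf3KO the change against Scramble was -0.35 (95% confidence interval -0.90 to 0.19) and in JunKO it was 0.16 (-0.39 to 0.70).

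Mef2a (chromosome 7, 67231163 to 67372858, minus strand), the paralog of Mef2c, was not called in any edited line. Scramble had 44.2 and 53.3 RPKM, JunDKO 61.7 and 63.5, JunKO 40.1 and 52.5, and Atf3KO 40.8 and 30.7. The JunDKO libraries lay above the Scramble libraries by 0.36 on the log2(RPKM + 1) scale, with a 95% confidence interval of -0.14 to 0.86. The per-length level of Mef2c, divided by that of Mef2a, was 0.249 to 0.283 (Scramble), 0.265 to 0.293 (Atf3KO), 0.306 to 0.326 (JunKO) and 0.894 to 0.905 (JunDKO). Of the other MEF2 genes and the class IIa deacetylases 4 of 6 were tested in iBMDMs and 0 were called by limma-trend in Atf3KO (12.5% of all genes called), JunKO (0.196%) or JunDKO (4.97%), with a median log2 fold change in JunDKO of 1.04, beside 0.23 over all genes.

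RefSeq gives Mef2c 3 starts, and the table condenses the gene to 1 model that begins at the first of them, so the values do not tell the starts apart. The window of the third start (GRCm38.p6, chr13:83573357-83573656, plus strand), inside the gene, is shown because it was the only one of 10 windows of the members with an AP-1 element, at positions -137 to -131 when the start base is 0. Over all windows of this length 7.81% hold it. The windows of the first and second start each hold the ETS core instead, at -122 to -117 and at -186 to -181. The capitals mark that element.
Mef2c: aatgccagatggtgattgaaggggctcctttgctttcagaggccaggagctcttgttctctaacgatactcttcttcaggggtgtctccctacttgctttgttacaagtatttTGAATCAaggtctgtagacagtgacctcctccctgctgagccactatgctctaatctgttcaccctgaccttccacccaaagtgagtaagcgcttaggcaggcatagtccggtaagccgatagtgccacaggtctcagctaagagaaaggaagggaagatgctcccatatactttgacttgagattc

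Maf (chromosome 8, 115703253 to 115706894, minus strand) was higher than Scramble in all 6 libraries of the edited lines and was called in 2 lines. It measured 30.04 and 43.5 RPKM in Scramble, 54.96 and 62.7 in JunKO, 85.5 and 109 in JunDKO, and 102 and 128 in Atf3KO. JunKO stood between Scramble and the other lines without overlap, and JunDKO and Atf3KO overlapped. The log2 fold change against Scramble was 1.63 ± 0.24 in Atf3KO (limma-trend adjusted p = 0.00195, and 3.02e-04 to 0.0165 in 15 alternatives) and 1.39 ± 0.24 in JunDKO (adjusted p = 0.00770). The JunDKO call was lost without JunDKO replicate 2 (1.22, adjusted p = 0.0895) and without Scramble replicate 1 (1.13, adjusted p = 0.0588), with a range over 16 alternatives of 0.00127 to 0.0895. In JunKO the change was 0.68 (95% confidence interval 0.14 to 1.22, adjusted p = 0.472). Neighbours in this order were not called apart: Atf3KO exceeded JunDKO by 0.24 (-0.30 to 0.78), and JunDKO exceeded JunKO by 0.71 (0.16 to 1.25, adjusted p = 0.111). Atf3KO exceeded JunKO by 0.95 (adjusted p = 0.0174), just under the 2-fold limit, and was called after GC correction (1.19) and without Atf3KO replicate 1 (1.12, against 0.78 and an adjusted p of 0.0875 without replicate 2). Within the shared title date the Atf3KO change against Scramble was 1.47 (adjusted p = 0.0165).

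Of the other large and small MAF genes and their partners, 5 of 9 were tested in iBMDMs. Bach1, a partner of the small MAF proteins that represses heme and antioxidant genes, was the 1 member called in Atf3KO against Scramble (12.5% of all genes called), from 18.8 ± 0.99 to 5.87 ± 0.38 RPKM (SD, n = 2; -1.53 ± 0.18, limma-trend adjusted p = 9.05e-04). The list's median log2 fold change was 0.45 there, beside 0.05 over all genes. In JunKO (0.196% of all genes called) and in JunDKO (4.97%) 0 of 5 were called.

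Spi1 (chromosome 2, 91096797 to 91115756, plus strand) was among the most abundant models in every library, with 0.323% to 1.54% of models above it. It measured 188 and 144 RPKM in Scramble, 180 and 127 in JunKO, 179 and 160 in JunDKO, and 211 and 494 in Atf3KO. Scramble, JunKO and JunDKO overlapped, both Atf3KO libraries lay above them, and Atf3KO replicate 2 stood apart from all other libraries. The log2 fold change was 0.04 in JunDKO (95% confidence interval -0.81 to 0.90), -0.12 in JunKO (-0.97 to 0.74) and 0.97 in Atf3KO (0.11 to 1.83, limma-trend adjusted p = 0.0675, and 0.00792 to 0.338 in 15 alternatives). In Atf3KO it was 0.36 without replicate 2, 1.58 without replicate 1 and 0.25 after GC correction (adjusted p = 0.303). In the direct contrasts Atf3KO exceeded JunKO by 1.09 (0.23 to 1.94, limma-trend adjusted p = 0.0524) and JunDKO by 0.93 (0.07 to 1.79, adjusted p = 0.0775). Neither contrast was called, though 4 of 15 alternatives called the first and 2 of 15 the second.

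Klf2 (chromosome 8, 72319062 to 72321654, plus strand) had the same split of the Atf3KO libraries. It measured 9.16 and 9.36 RPKM in Scramble, 5.18 and 6.77 in JunKO, 2.13 and 2.22 in JunDKO, and 5.27 and 25.3 in Atf3KO. JunDKO was the lowest group and did not overlap with any other, and the Atf3KO libraries lay on either side of Scramble. In JunDKO the difference of -1.69 ± 0.55 (limma-trend adjusted p = 0.0906) was not called, with at most 9.36 RPKM in either group, under the minimum of 16. Its adjusted p was 0.00382 without the Atf3KO libraries, 0.00677 with only the libraries compared, 0.0110 after GC correction and 0.0351 after quantile normalization, and 0.00382 to 0.319 over all alternatives, none of which called it. Its JunDKO values rested on 6 and 74 reads, with exact 95% Poisson intervals of 0.783 to 4.64 and of 1.74 to 2.78 RPKM, which cover counting error only. Atf3KO exceeded JunDKO by 2.02 ± 0.55 (adjusted p = 0.0212) with a mean under 16 RPKM on both sides, and was not called. This difference was 0.98 without Atf3KO replicate 2 and 3.05 without replicate 1, where it was called, as it was without the RPKM minimum. In Atf3KO the difference from Scramble was 0.33 ± 0.55, was called without replicate 1 (1.36, adjusted p = 0.00831), and reversed to -0.71 without replicate 2 and to -0.63 after GC correction.

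These 2 factors have the highest GC content of the 9, 58.9% (Spi1) and 61.6% (Klf2), and the other 7 span 42.4% to 54.6%. Replicate 2 of Atf3KO, the 1 iBMDM library with another date in its title, exceeded replicate 1 by 1.22 (Spi1) and 2.07 (Klf2) on the log2(RPKM + 1) scale, and was lower by -0.43 (Klf6), -0.40 (Mef2a) and -0.50 (Mef2c), the 3 factors of lowest GC content. Over all 10885 genes with GC content the replicate difference of Atf3KO correlated with GC content at Spearman's rho of 0.64, and those of Scramble, JunKO and JunDKO at -0.44, -0.45 and -0.31 (across genes, which are not independent). The Atf3KO change against Scramble itself correlated with GC content at 0.49 across 10645 genes, with a median of 0.73 at a GC content of at least 55% and of -0.60 under 45%. Its part in the Atf3KO counts of the gene lists was not tested. The part of GC content or date in the Spi1 and Klf2 values was not tested beyond the GC correction.

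**Figure D3:**
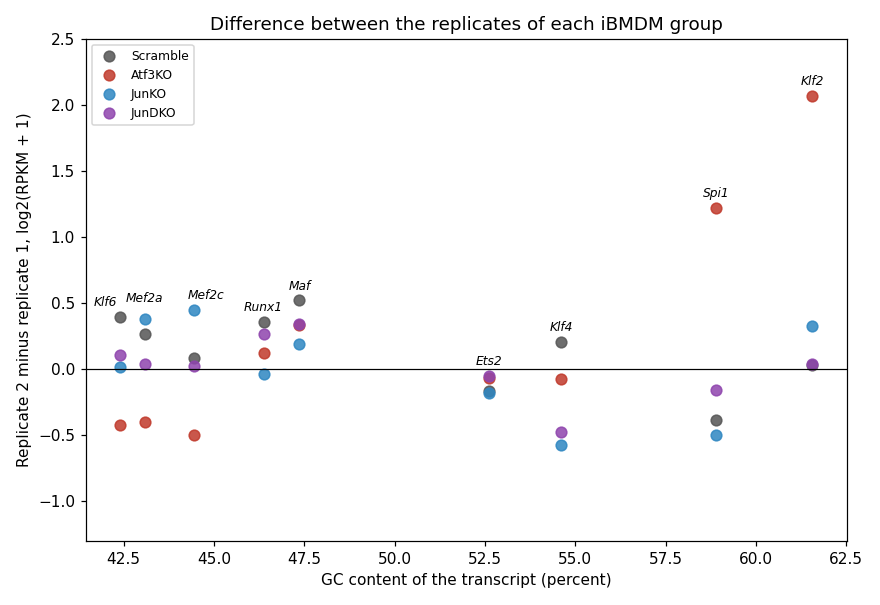
Difference between replicate 2 and replicate 1 (log2(RPKM + 1) scale) of each iBMDM group against the GC content of the transcript in percent, with a point for each factor and group and the factor named above its highest point. Klf2 (2.07) and Spi1 (1.22) in Atf3KO stand above every other point.

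Runx1 (chromosome 16, 92601466 to 92826074, minus strand) had its highest iBMDM values in Atf3KO and JunDKO but was not called, with no group at 16 RPKM. It measured 6.10 and 8.09 RPKM in Scramble, 8.73 and 8.49 in JunKO, 12.0 and 13.1 in Atf3KO, and 12.8 and 15.6 in JunDKO. Atf3KO and JunDKO overlapped and lay above every Scramble and JunKO library. Differences from Scramble were 0.75 ± 0.21 in Atf3KO (limma-trend adjusted p = 0.0230) and 0.92 ± 0.21 in JunDKO (adjusted p = 0.0279), both under 2-fold. Against JunKO they were 0.49 in Atf3KO and 0.66 in JunDKO (both adjusted p = 0.099). At equal library medians the JunDKO value was 0.64 (adjusted p = 0.119), and after GC correction the Atf3KO value was 1.05 (adjusted p = 0.00403). Of its partners and paralogs 4 of 6 were tested and 0 were called in any of the 3 comparisons, where 12.5% (Atf3KO), 0.196% (JunKO) and 4.97% (JunDKO) of all genes were called.

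Klf6 (chromosome 13, 5861489 to 5870393, plus strand) and Klf4 (chromosome 4, 55527137 to 55532475, minus strand) were not called in any edited line. Klf6 measured 45.8 and 60.5 RPKM in Scramble, 64.4 and 65.0 in JunKO, 57.2 and 61.6 in JunDKO, and 42.7 and 31.5 in Atf3KO. Its largest difference from Scramble was in Atf3KO, -0.51 (95% confidence interval -0.99 to -0.02, limma-trend adjusted p = 0.0850), which was 0.09 after GC correction. In the direct contrasts Klf6 in Atf3KO differed from JunKO by -0.80 (adjusted p = 0.0218) and from JunDKO by -0.68 (adjusted p = 0.0338). Both were under 2-fold and not called. Klf4 was at 0.576 to 1.91 RPKM in all 8 iBMDM libraries, with 3 reads in JunKO replicate 2 and 8 and 9 in the Scramble libraries. Its differences from Scramble were -0.25 in Atf3KO (95% confidence interval -1.03 to 0.54), -0.40 in JunKO (-1.19 to 0.38) and -0.04 in JunDKO (-0.83 to 0.74). Of the other KLF genes 7 of 13 were tested in iBMDMs. Klf16, a repressor of the same family, was the 1 called, in Atf3KO (12.5% of all genes called), from 6.81 ± 0.89 to 19.0 ± 9.47 RPKM (SD, n = 2; 1.27 ± 0.34, adjusted p = 0.0192).

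As deposited, JunDKO values carry a median log2 fold change of 0.23 over all tested genes. At equal library medians this median was -0.03, and the JunDKO changes were 1.09 (Maf), 1.75 (Mef2c) and -1.86 (Ets2), each still called.

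Genes that depend on PU.1 in myeloid cells were examined beside Spi1, as 20 genes of which all were tested. In JunDKO 2 were called higher and 1 lower (4.97% of all genes called), with a median log2 fold change of 0.00 beside 0.23 over all genes. Mrc1, the mannose receptor CD206, rose from 1.08 ± 0.13 to 63.0 ± 0.36 RPKM (SD, n = 2; 4.94 ± 0.20, limma-trend adjusted p = 8.77e-06). It was also higher than Scramble in JunKO, at 14.2 ± 0.26 RPKM (2.86 ± 0.20, adjusted p = 0.00180), and in Atf3KO, at 14.3 ± 2.97 RPKM (2.87 ± 0.20, adjusted p = 1.41e-04), where only the 16 RPKM minimum kept it from being called. JunDKO exceeded JunKO by 2.08 ± 0.20 (adjusted p = 7.38e-04). Fcgr3, an activating Fc receptor, rose by 1.33 ± 0.21, and Itgb2, the beta chain of the leukocyte integrins, fell by 1.83 ± 0.19 on the log2 scale. In Atf3KO 1 was called higher, Csf2ra (1.35 ± 0.45, adjusted p = 0.0437), and 1 lower, Ptprc (-1.12 ± 0.22, adjusted p = 0.00655), where 12.5% of all genes were called. In JunKO limma-trend called 0 of 20, where 0.196% of all genes were called.

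Of 20 further factors of the myeloid lineage 14 were tested in iBMDMs. In Atf3KO 3 were called higher: Cebpd (3.67 ± 0.41), Cebpb (2.32 ± 0.55) and Lmo2 (1.60 ± 0.19), with a list median of 0.58 beside 0.05 over all genes, 12.5% of which were called and 7.84% called higher. Cebpb and Cebpd are C/EBP factors that bind with PU.1, and their libraries varied widely in Atf3KO, 185 ± 163 and 64.1 ± 42.8 RPKM (SD, n = 2). In JunDKO Cebpa, needed for granulocyte and monocyte progenitors, rose by 1.87 ± 0.30 and Lmo2 by 1.26 ± 0.19, and Bhlhe41, a repressor expressed in tissue macrophages, fell by 1.24 ± 0.24, where 4.97% of all genes were called. Of the other ETS genes 15 of 19 were tested. Etv3, an ETS repressor linked to macrophage growth arrest, was called in JunDKO against Scramble, with 21.6 ± 2.28 RPKM beside 9.25 ± 1.09 (SD, n = 2; 1.14 ± 0.19, limma-trend adjusted p = 0.00681; 4.97% of all genes called). It was not called between edited lines, in JunDKO against JunKO or in Atf3KO against JunDKO.

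In TGEMs the KLA comparison asked which factors change within 1 h of TLR4 signalling. Klf2 and Klf6 rose, 2 of 9 factors, where 1.13% of all 10357 tested genes were called and 1% were called higher. Over all genes 117 were called, and 15 without the Balb/cJ vehicle library and 68 without the first Balb/cJ KLA library. KLA and vehicle libraries did not overlap for 4 of 9, beside 23.7% of all genes. The fit had treatment and strain as terms over 5 libraries and 2 residual degrees of freedom, so both calls depended on single libraries. Over all genes the KLA comparison had a median of -0.15, which was -0.02 once library medians were made equal.

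Klf2 measured 5.67 RPKM with vehicle and 37.2 with KLA in C57Bl/6EiJ TGEMs, and 5.66 with vehicle and 22.2 and 22.5 with KLA in Balb/cJ TGEMs. All 3 KLA libraries lay above both vehicle libraries, and the vehicle libraries of the strains were nearly equal. On the log2 scale, used for every change of Klf2 given here, it rose by 2.11 ± 0.27 (limma-trend adjusted p = 0.0101). The call was lost without the C57Bl/6EiJ vehicle (adjusted p = 0.0830), the C57Bl/6EiJ KLA (0.0766), the Balb/cJ vehicle (0.138) or the first Balb/cJ KLA library (0.0744), without the filter on low values (0.0673) and with the title date in place of strain (0.0683), over a range of 1.21e-04 to 0.138 in 15 alternatives, in which the fold change stayed at 1.63 to 2.52. Within a title date the difference was 2.52 in C57Bl/6EiJ and 1.80 in Balb/cJ.

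Klf6 measured 94.9 RPKM with vehicle and 247 with KLA in C57Bl/6EiJ TGEMs, and 110 with vehicle and 361 and 327 with KLA in Balb/cJ TGEMs. It was the most abundant of the 9 factors in both Balb/cJ KLA libraries, and again no KLA library overlapped with vehicle. Its rise on the log2 scale was 1.52 ± 0.26 (limma-trend adjusted p = 0.0364). Leaving out any 1 of the 5 libraries ended the call, with adjusted p of 0.0673 (second Balb/cJ KLA), 0.126 (C57Bl/6EiJ KLA), 0.129 (C57Bl/6EiJ vehicle), 0.151 (first Balb/cJ KLA) and 0.498 (Balb/cJ vehicle), and so did a pseudocount of 5 (0.0538), no filter (0.142) and the title date (0.154), over a range of 5.44e-04 to 0.498. The log2 fold change itself stayed between 1.37 and 1.75.

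The start windows of Klf2 (GRCm38.p6, chr8:72318812-72319111, plus strand) and Klf6 (chr13:5861239-5861538, plus strand) are shown because these were the factors called with KLA. Capitals mark a match to the MEF2 site at positions -118 to -109 of Klf2. Neither window held the AP-1 element, the cyclic AMP element, the NF-kappaB site, the CArG box or the ETS core as searched.
Klf2: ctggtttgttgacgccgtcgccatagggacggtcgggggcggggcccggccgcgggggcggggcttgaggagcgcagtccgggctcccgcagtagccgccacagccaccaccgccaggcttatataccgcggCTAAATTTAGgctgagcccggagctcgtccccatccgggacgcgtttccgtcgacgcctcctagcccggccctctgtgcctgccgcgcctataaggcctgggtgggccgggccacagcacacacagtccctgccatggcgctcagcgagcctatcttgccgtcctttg
Klf6: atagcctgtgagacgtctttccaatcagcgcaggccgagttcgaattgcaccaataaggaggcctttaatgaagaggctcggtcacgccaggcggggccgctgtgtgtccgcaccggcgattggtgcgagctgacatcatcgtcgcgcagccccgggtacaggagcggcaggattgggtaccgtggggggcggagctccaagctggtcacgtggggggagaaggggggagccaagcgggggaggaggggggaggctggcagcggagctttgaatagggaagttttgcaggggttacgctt

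Ets2 had higher values in each KLA library but was not called. It measured 4.31 RPKM with vehicle and 12.3 with KLA in C57Bl/6EiJ TGEMs, and 8.67 with vehicle and 40.0 and 20.97 with KLA in Balb/cJ TGEMs. Groups did not overlap. The log2 fold change was 1.50 ± 0.32 (95% confidence interval 0.74 to 2.26, limma-trend adjusted p = 0.0973), and it was called with limma-voom on recovered reads (adjusted p = 0.00528), in a single fit of all 13 libraries (0.00730) and without the second Balb/cJ KLA library (0.0495), over a range of 0.00528 to 0.662.

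Maf measured 26.3 RPKM with vehicle and 16.2 with KLA in C57Bl/6EiJ TGEMs, and 29.7 with vehicle and 18.4 and 12.0 with KLA in Balb/cJ TGEMs. Each KLA library was below both vehicle libraries, and the change of -0.83 ± 0.28 had a limma-trend adjusted p of 0.252. Within a title date it was -0.66 in both strains. The MEF2 factors also had values that were lower with KLA than with the vehicle of their strain. Mef2a went from 19.6 to 17.0 RPKM and from 29.6 to 24.4 and 15.6, and Mef2c from 2.30 to 1.92 and from 5.86 to 3.11 and 2.46, with changes of -0.41 (95% confidence interval -1.09 to 0.27) and -0.57 (-1.24 to 0.10) that were not called.

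Spi1 measured 257 RPKM with vehicle and 273 with KLA in C57Bl/6EiJ TGEMs, and 182 with vehicle and 308 and 190 with KLA in Balb/cJ TGEMs. Its groups overlapped, and the change was 0.27 (95% confidence interval -0.45 to 0.99). Runx1 measured 13.1 and 11.2 RPKM, and 11.2 with 12.9 and 8.24, in the same order, a change of -0.15 (-0.79 to 0.49). Klf4 measured 11.5 and 6.27, and 3.94 with 4.95 and 2.40, a change of -0.41 (-1.17 to 0.35), with KLA values on both sides of the Balb/cJ vehicle library.

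**Figure D4:**
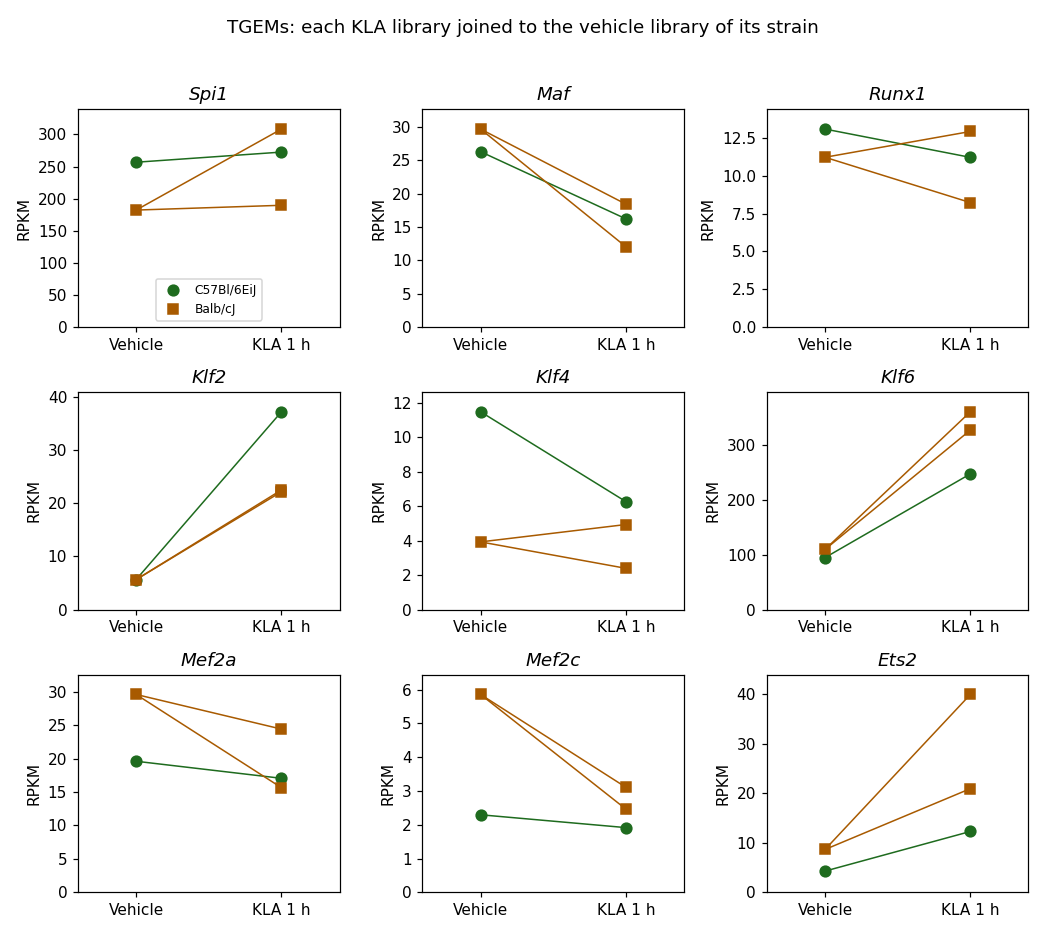
RPKM (linear axes from 0) of each factor in TGEMs with vehicle or 1 h of KLA, each KLA library joined to the vehicle library of its strain, circles for C57Bl/6EiJ and squares for Balb/cJ. Every line rises for Klf2, Klf6, Ets2 and Spi1, of which Ets2 and Spi1 were not called, and every line falls for Maf, Mef2a and Mef2c, none of which was called.

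The B cell list summed to 14.5 RPKM with vehicle and 11.8 with KLA in C57Bl/6EiJ TGEMs, and to 12.0 with vehicle and 12.8 and 26.0 with KLA in Balb/cJ TGEMs. The mesothelial and fibroblast list summed to 44.6 and 37.6, and to 49.5 with 47.0 and 26.3. The neutrophil list of 8 genes, with Ly6g and Camp at 0, summed to 11.0 and 0.794, and to 13.4 with 13.5 and 3.18. The dendritic cell list of 5 genes summed to 2.26 and 3.39, and to 0.217 with 1.33 and 1.64. The eosinophil and mast cell list of 6 genes, with Prg2 at 0, summed to 4.12 and 6.52, and to 1.27 with 1.96 and 6.26. Both of these sums were higher in every KLA library than in the vehicle library of its strain. Genes of the dendritic cell list went both ways in C57Bl/6EiJ TGEMs. Ccr7 (0.089 to 2.03 RPKM) and Cd209a (0.713 to 1.04) rose with KLA, and Zbtb46 (1.13 to 0.239), Flt3 (0.217 to 0.085) and Xcr1 (0.118 to 0) fell. The part of these lists in the KLA values was not tested, and in bulk samples fewer cells of a type and less RNA per cell cannot be told apart. Of the lists read beside the factors, Maff, a small MAF protein, was called (2.43 ± 0.89 RPKM with vehicle, 73.7 ± 29.98 with KLA, SD, n = 2 and 3; 4.29 ± 0.30, limma-trend adjusted p = 7.37e-04), as were the immediate early factors Egr1 (5.76 ± 0.33) and Egr2 (2.81 ± 0.30) and, among PU.1-dependent genes, the LPS co-receptor Cd14 (3.71 ± 0.50). No other KLF, ETS, RUNX or MEF2 gene of the lists was called by limma-trend with KLA.

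Between strains limma-trend called 0 of 9 factors (1.16% of all genes called), with 2 at an unadjusted p under 0.05 (21.4% of all genes). These were Ets2, 1.04 ± 0.32 higher in Balb/cJ (adjusted p = 0.136), and Klf4, 0.97 ± 0.32 lower (adjusted p = 0.155). Ets2 was called in the fit of all 13 libraries (0.0346) and by limma-voom (0.0369). Strain, the date of the title and the genome used for alignment cannot be told apart, and strain differences correlated with GC content at Spearman's rho of -0.44 across genes. Mef2c was higher by 0.66 in Balb/cJ (95% confidence interval -0.01 to 1.34). The interaction of KLA and strain, with 1 residual degree of freedom, was called for 0 of 10357 genes by limma-trend, with 835 at an unadjusted p under 0.05 (8.06%), and for the 9 factors its unadjusted p were 0.193 to 0.877.

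Resting C57Bl/6EiJ TGEMs were set beside the Scramble iBMDMs of the same strain to show how far the line departs from primary cells. This group is 1 library. In a fit of all 13 libraries its value was estimated from an additive model of KLA and strain over the 5 TGEM libraries, so the vehicle and KLA libraries of both strains enter each value given here. With a coefficient for each TGEM group, chosen after the values were seen, the 1 library stands alone, its spread is assumed to be that of the other groups, and its values are given as a description, with no call. Cell source, culture and date of the title cannot be told apart in this comparison. Ets2 and Mef2a were lower in TGEMs, 2 of 9, where 21.1% of all 10929 tested genes were called, 7.89% higher and 13.2% lower. All genes had a median of -0.28, and of -0.04 once library medians were made equal.

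Ets2 was at 4.31 RPKM against 60.5 and 53.7 (-3.54 ± 0.30, limma-trend adjusted p = 8.78e-06, and 8.34e-08 to 1.74e-04 in 16 alternatives). Mef2a was at 19.6 RPKM against 44.2 and 53.3 (-1.16 ± 0.28, adjusted p = 0.00721). That call was lost at equal library medians (-0.88), after quantile normalization (-0.92), averaged over the TGEM strains (-0.98) and after GC correction (-0.38), with adjusted p of 0.00161 to 0.129 over 16 alternatives. From the single vehicle library Mef2a was -1.27 and Ets2 -3.45.

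Mef2c, at 2.30 RPKM against 12.5 and 13.3 (-1.88 ± 0.29, limma-trend adjusted p = 4.38e-04), and Klf4, at 11.5 RPKM against 1.37 and 1.73 (2.11 ± 0.37, adjusted p = 0.00109), passed the test and 2-fold but stayed under 16 RPKM. The value of Klf4 rested on 398 reads in TGEMs and on 8 and 9 in Scramble. Klf6 (0.76 ± 0.24, adjusted p = 0.0225) and Runx1 (0.78 ± 0.26, adjusted p = 0.0319) were higher in TGEMs by less than 2-fold, and were 1.58 (called) and 1.37 (called) after GC correction. Spi1 (0.55, 95% confidence interval -0.37 to 1.47), Maf (-0.36, -1.01 to 0.28) and Klf2 (-0.42, -1.64 to 0.80) were not called, and from the single library they were 0.64, -0.45 and -0.62. Of the other lineage factors 7 of 17 tested were called higher, Egr2 (4.82 ± 0.33), Cebpa (4.37 ± 0.30) and Bhlhe40 (3.30 ± 0.30) most, and 1 lower, Ikzf1 (-1.003 ± 0.22), with a median of 1.59 beside -0.28 over all genes, 7.89% of which were called higher.

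In this comparison 7.89% of all genes were called higher and 13.2% lower, with a median of -0.28. Of the KLF genes 2 of 7 tested were called higher in TGEMs, Klf9 (3.25 ± 0.42) and Klf13 (1.09 ± 0.25), and of the MEF2 list 2 of 5, Mef2d (1.11 ± 0.21) and Hdac5 (1.38 ± 0.40), with 0 lower in each. Of the other ETS genes 1 of 15 was called higher, Etv3 (1.25 ± 0.20), and 2 lower, Gabpa (-1.303 ± 0.24) and Fli1 (-1.15 ± 0.22). Of the RUNX list 1 of 4 was called, Cbfb, the partner subunit that RUNX factors need for stable DNA binding, which was lower (-1.28 ± 0.32). The PU.1-dependent genes went both ways, with 8 of 20 called higher and 9 lower and a median of -0.81. Mrc1 (4.35 ± 0.25) was highest among them, and Adgre1, which encodes the macrophage marker F4/80, was lowest (-3.50 ± 0.22).

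**Figure D5:**
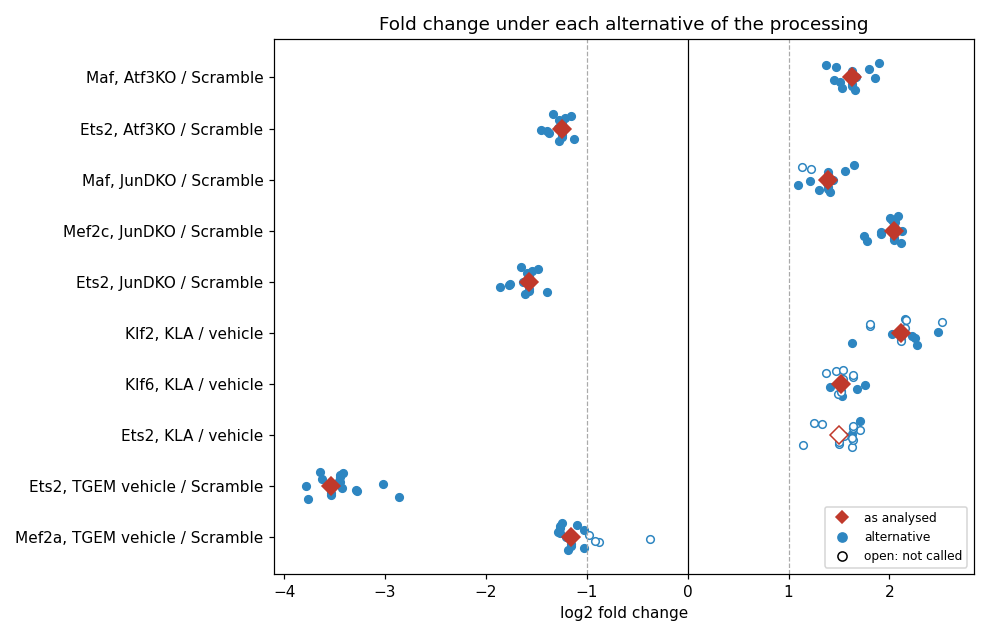
Log2 fold change of 10 results under each alternative of the processing (circles) and as analysed (diamonds), filled where called and open where not, with dashed lines at 2-fold. No point crosses 0; Ets2 and Mef2c in the edited lines stay filled throughout, and Klf2, Klf6 and Ets2 with KLA mix filled and open points.

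Across the 13 libraries the genes whose log2(RPKM + 1) followed each factor most closely, among 3960 genes with a mean of at least 16 RPKM, were named by Pearson's r. The libraries fall into iBMDMs and TGEMs, so r also reflects the gap between them, and no p is given. Ets2 was followed by Clec4e, Ifit1 and Slc20a1 (r = 0.947, 0.905 and 0.901), Klf6 by Il1a, Dusp5 and Ifrd1 (0.970, 0.967 and 0.967), Klf2 by Rhbdf2, Junb and Rnf19b (0.882, 0.846 and 0.843) and Mef2c by Ivns1abp, Akap10 and Tmf1 (0.975, 0.973 and 0.966). Maf was followed by Iars2, Igfbp4 and Ube2c (0.972, 0.968 and 0.967), Runx1 by Tacc1, Man1c1 and Cuedc2 (0.879, 0.862 and 0.860) and Klf4 by Fam63a, Fam234a and Gm2a (0.95, 0.941 and 0.937). The genes nearest to Spi1 were Sf3a2, Arhgdia and Git1 (0.957, 0.926 and 0.917), at 58.9% to 62.2% GC beside 58.9% for Spi1, and those nearest to Mef2a were Zfp638, Atrx and Rdx (0.989, 0.988 and 0.983), at 39.5% to 41.6% GC beside 43.1% for Mef2a. GC content was not as close for every factor. The genes named for Ets2 (52.6% GC) were at 39.7%, 43.3% and 48.3%, and those for Runx1 (46.4%) at 49.1%, 57.3% and 56.5%.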

How the data were processed

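PolyA RNA-seq of 8 iBMDM and 5 TGEM libraries was analysed from the RPKM values that the authors deposited, over the exons of 24453 gene models. Per the submitters' processing notes and the file header, the authors aligned reads with STAR to mm10 (Balb/cJ reads to a genome of that strain, per the study's methods) and made the RPKM table with HOMER, condensed to 1 model per gene. Versions and a strand option are not given in the sources used here. GRO-seq (4 samples) was not analysed here.

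Reads and depth were recovered from the steps of RPKM times exon length (100% of values up to 50 reads within 0.05 of a whole number), and replicates were checked: the number of identical library pairs was 0. After models under a mean of 1 RPKM were dropped, log2(RPKM + 1) was fitted with limma-trend (limma 3.58.1, R 4.3.3, two-sided): a coefficient per group for 8 iBMDM libraries, terms for treatment and for strain in 5 TGEM libraries, and all of these terms over 13 libraries for TGEMs against Scramble. Fold changes on this scale understate changes of genes with low values. P-values were adjusted by the Benjamini-Hochberg method over all tested genes, and calls needed 2-fold and 16 RPKM in either group. Errors with fold changes are SE.

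Alternatives were a pseudocount of 0.1 or 5, no filter, no RPKM minimum, equal library medians, quantile normalization, a GC correction (spline with 5 degrees of freedom per library, GC content from GENCODE transcripts for 99.0% of models), limma-voom on recovered reads, other sets of libraries, the replicate block and each library left out. Where this leaves a group with 1 library, it is assumed to vary like the others. The fit without the Atf3KO libraries and that with a coefficient for each TGEM group were chosen after seeing the data. The code was tested on simulated data. All 9 factors are named. From each context list the called genes with the largest changes (up to 3 in each direction) may be named, and for likeness the 3 genes of highest Pearson's r. The factors and lists were chosen with earlier results of these data known. Start windows are from RefSeq (GRCm38.p6), for 7 of 9 factors, not Spi1 and Maf. Tables and figures were made with pandas 2.3.3, numpy 2.4.6, scipy 1.17.1 and matplotlib 3.10.9 in Python 3.11.15.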

Additional observations from a re-analysis of the deposited data

How the results depend on the processing

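The fold changes of Ets2 in Atf3KO and JunDKO, of Maf in Atf3KO and of Mef2c in JunDKO were called in every alternative run. With 1 library left out, the number of the 9 factors called was 2 to 4 (Atf3KO against Scramble), 0 (JunKO), 2 to 3 (JunDKO), 2 (JunDKO against JunKO), 1 to 4 (Atf3KO against JunDKO), 1 to 5 (Atf3KO against JunKO), 0 to 2 (KLA), 0 (strain) and 2 (TGEM against Scramble, where leaving out the only C57Bl/6EiJ vehicle library was not run, since it empties the group), with the highest counts of Atf3KO without its replicate 1. The calls over all genes moved with the library left out as well, and in each Atf3KO comparison they rose without its replicate 1. For Atf3KO against JunDKO the number of factors called was 2 at equal medians and without the RPKM minimum. For Atf3KO against JunKO it was 2 with GC correction, all 13 libraries, limma-voom and quantile normalization. For strain it was 1 with all 13 libraries and limma-voom. For KLA it was 0 with the title date or no filter, 1 with a pseudocount of 5, and 3 with limma-voom and with all 13 libraries. For TGEMs against Scramble it was 1 averaged over strains or after quantile normalization, 3 with GC correction (Ets2, Klf6 and Runx1, without Mef2a) and 4 without the RPKM minimum, which that setting's construction adds. Without the Atf3KO libraries (chosen after seeing the data) it was 0 in JunKO, 3 in JunDKO and 2 in JunDKO against JunKO. The cause of the other shifts was not tested.

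The sign turned in 26 values of factors, none of them called as analysed. With GC correction these were Klf2 (-0.63), Klf6 (0.088), Mef2a (0.10) and Mef2c (0.080) in Atf3KO, Spi1 in JunDKO against Scramble (-0.25) and JunKO (-0.035), Runx1 with KLA (0.025), and Maf (0.16) and Spi1 (-0.076) in TGEMs against Scramble. At equal medians they were Spi1 (-0.26) and Klf6 (-0.13) in JunDKO and Spi1 in JunDKO against JunKO (-0.11), and after quantile normalization Klf4 in Atf3KO (0.23). With 1 library left out, signs turned within these ranges: Klf2 in Atf3KO against Scramble (-0.71 to 1.36) and JunKO (-0.14 to 1.93), Spi1 (-0.15 to 0.23), Klf4 (-0.28 to 0.19) and Klf6 (-0.027 to 0.37) in JunDKO, Spi1 in JunDKO against JunKO (-0.090 to 0.41), and Spi1 (-0.37 to 0.13), Mef2a (-0.27 to 0.11) and Mef2c (-0.069 to 0.38) in JunKO.

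The replicate block changed no call of a factor, with 2 called in Atf3KO, 0 in JunKO and 3 in JunDKO against Scramble, and moved the calls over all genes in JunKO from 21 to 8. Across genes the replicate differences of Scramble, JunKO and JunDKO, which share a title date, correlated at 0.22, 0.18 and 0.19, and those of Atf3KO with each of them at -0.21 to -0.12. No label says that a number marks a shared culture or batch, so the libraries are treated as sharing only a number. Depth limits Klf4 and Klf2 in iBMDMs most.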
